A study of Homo sapiens with 2 samples.

Results

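The 10 genes studied here regulate the growth kinase complex mTORC1, most of them as brakes, and their transcripts were compared between HCT116 colon carcinoma cells with and without LXR623. They were picked by gene symbol in the platform's annotation, with earlier results of these data known, and each of the 10 matched 1 probe set among 23786. They are DDIT4, the sestrin genes SESN1, SESN2 and SESN3, DEPTOR, the folliculin gene FLCN with its partners FNIP1 and FNIP2, and the tuberous sclerosis genes TSC1 and TSC2. The study asked how LXR623, which activates liver X receptors, acts on tumor cells. HCT116 is an established human cell line, here given 20 µM LXR623 or, as the control, 0.1% DMSO for 24 h. Cells were grown in 10% serum, and the labels name 1.5% serum for the treatment. Each condition is 1 array of total RNA from 1 cell line, so no value below has an error or a test.

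mTORC1 drives protein synthesis and growth when amino acids, energy and growth factors are plentiful. Growth factor signals reach it through the small GTPase Rheb, which the TSC complex switches off, and amino acid signals through the Rag GTPases on the lysosome, which are held back by GATOR1 and helped by folliculin. DDIT4 and the sestrins are induced by stress and damp the complex through TSC and through the amino acid branch. DEPTOR binds the mTOR kinase directly.

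In the LXR623 array, the stress-induced brakes DDIT4 and SESN2 were higher and the folliculin partner FNIP2 was lower, while the other members did not reach 1.5-fold. Levels are log2 intensities, and a probe set was taken as measured from a brighter level of 4.42 upward, which is the median of all deposited values. By this rule 9 of the 10 members were measured, each on both arrays. Among these 9, DDIT4 and SESN2 made 2 that reached 1.5-fold upward in the LXR623 array, against a background of 6.3% of the 12279 measured probe sets. FNIP2 was the 1 member that reached 1.5-fold downward, against 5.78%. At a threshold of 2-fold, DDIT4 and FNIP2 remained, with backgrounds of 1.38% upward and 0.741% downward. The median log2 difference, LXR623 minus DMSO, was 0.18 over the 9 measured members and 0.16 over all 10, beside -0.02 over the measured probe sets. The difference was above 0 for 8 of the 10 members, the dim SESN3 among them. Over all probe sets this share was 46.6%, and over the measured ones 47.0%. The arrays read the RNA of whole cultures, so a lower level in every cell and fewer cells that express a gene cannot be told apart.

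**Figure D1:**
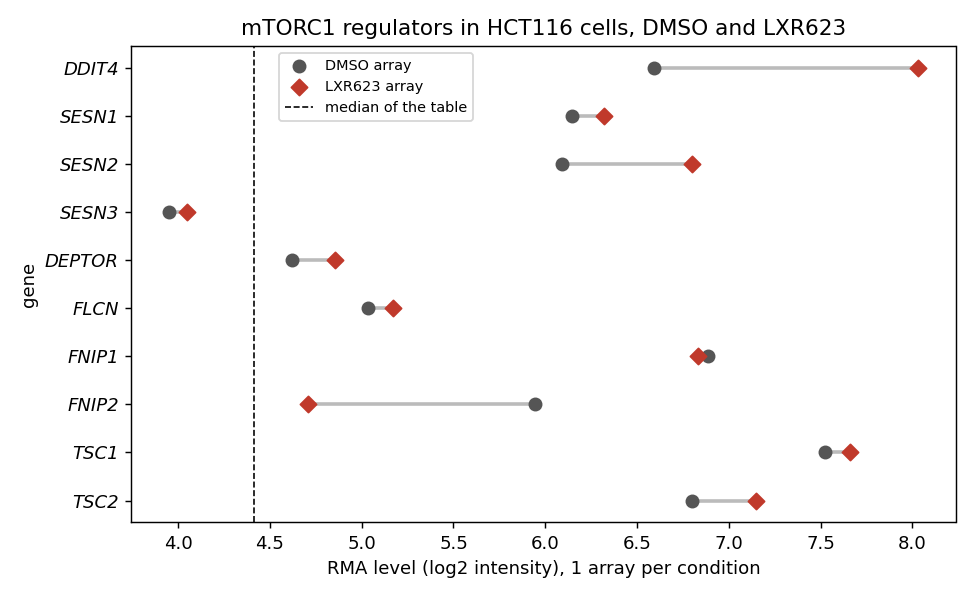
RMA level (log2 intensity) of each of the 10 genes on the DMSO array (circle) and the LXR623 array (diamond), with the median of the table as a dashed line. DDIT4 and SESN2 lie to the right in the LXR623 array, FNIP2 lies to the left, and SESN3 stays under the median on both arrays. Levels of different probe sets are not comparable with each other.

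DDIT4, also known as REDD1, slows mTORC1 through the TSC complex under energy stress, hypoxia and endoplasmic reticulum stress. Its level was 6.59 with DMSO and 8.03 with LXR623, a log2 difference of 1.44 or 2.71-fold. This was the largest difference in size among the members, and 36 of the 12279 measured probe sets had a larger positive one. The measured probe sets were split by mean level into 4 brightness bins of near-equal size. Those of the third bin, which holds DDIT4, had a central 95% of differences from -0.74 to 0.76, and DDIT4 lay outside it. In that bin 5.28% were at least 1.5-fold higher. DDIT4L, its paralog with a similar action, had 4.83 and 4.62, a difference of -0.22 in the other direction that did not reach 1.5-fold. By the nearness of the difference over these 2 arrays, the measured genes most like DDIT4 were RGS6 with 1.42, KRT80 with 1.45 and SLC44A5 with 1.45. RGS6 had 3.34 with DMSO, under the median of the table, and was measured through its LXR623 level of 4.77 alone.

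The promoter of DDIT4 is shown because it is the member with the largest difference. The 250 bases before the gene start were searched on both strands for TGATGNAA, the type of element that ATF4 and C/EBP factors bind, for CACGTG, the E-box read by MiT/TFE factors among others, for ACGTG, the core of hypoxia elements, and for GTAAACA, which FOXO factors bind. ACGTG is part of CACGTG, so each E-box also counts as an ACGTG match. Of 35114 RefSeq promoter windows of this length, 3.14% held TGATGNAA, 6.35% CACGTG, 18.5% ACGTG and 2.98% GTAAACA. Capitals mark matches in each sequence, which is from RefSeq, build GRCh38.p14, and reads 5′ to 3′ on the strand of the gene. For DDIT4, chr10:72273674-72273923, plus strand, the window held 1 ACGTG, from -125 to -121 relative to the gene start, and no match of the other 3 motifs.
DDIT4: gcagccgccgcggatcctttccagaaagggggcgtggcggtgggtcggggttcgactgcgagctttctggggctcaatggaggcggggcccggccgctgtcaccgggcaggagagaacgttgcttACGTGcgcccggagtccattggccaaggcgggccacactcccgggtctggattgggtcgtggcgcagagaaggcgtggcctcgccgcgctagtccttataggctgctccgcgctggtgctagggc

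The sestrins pass on stress and leucine shortage to mTORC1 by binding GATOR2, which frees GATOR1 to switch off the Rag GTPases. SESN2, a leucine sensor induced by the integrated stress response and by p53, was the sestrin with the largest difference. Its level was 6.09 with DMSO and 6.80 with LXR623, a log2 difference of 0.71 or 1.63-fold. In all, 478 measured probe sets had a larger positive difference, and the value lay within the central 95% of its brightness bin, the second, which ran from -0.80 to 0.80. In that bin 5.9% were at least 1.5-fold higher. SESN1, a target of p53, had 6.15 and 6.32, a difference of 0.18. SESN3, a target of FOXO factors, had 3.95 and 4.05, both under the median of the table, so its difference of 0.10 was read from a dim probe set. SESN2 thus exceeded SESN1 in its difference by 0.53 and SESN3 by 0.61, gaps that could not be tested with 1 array per condition.

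The promoter of SESN2 is shown beside that of DDIT4, since both genes were past 1.5-fold in the same direction. At chr1:28259268-28259517, plus strand, it held no match of any of the 4 motifs in these 250 bases, and neither did the 3 windows of SESN1 or the window of SESN3.
SESN2: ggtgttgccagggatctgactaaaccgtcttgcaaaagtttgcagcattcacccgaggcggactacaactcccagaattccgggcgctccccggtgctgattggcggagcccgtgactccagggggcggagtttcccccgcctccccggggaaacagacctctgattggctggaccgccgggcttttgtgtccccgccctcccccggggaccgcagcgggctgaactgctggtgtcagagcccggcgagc

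Folliculin, the product of FLCN, acts with FNIP1 or FNIP2 as the GTPase-activating protein for RagC and RagD, and so brings the factors TFEB and TFE3 under control of mTORC1. Of the 3 transcripts of this complex, that of FNIP2 differed most. It had a level of 5.95 with DMSO and 4.71 with LXR623, a log2 difference of -1.24, or 2.36-fold lower. Only 24 of the 12279 measured probe sets had a more negative difference, and the value lay outside the central 95% of its brightness bin, the dimmest, from -0.84 to 1.01. In that bin 7.65% were at least 1.5-fold lower. The LXR623 level was 0.29 above the median of the table, close to the dim range. FNIP1, its paralog, had 6.88 and 6.83, a difference of -0.05, and the gap between both partners was -1.18. FLCN itself had 5.04 and 5.17, a difference of 0.13. The measured genes nearest to FNIP2 in their difference were H2AC7 with -1.24, RPL29 with -1.23 and RPL23AP32 with -1.24. The LXR623 levels of H2AC7, 3.61, and RPL23AP32, 3.28, were under the median of the table, and both were measured through their DMSO level alone. Histone and ribosomal protein genes have near-identical copies, so those probe sets may share signal.

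The promoters of both partners are shown because FNIP2 was past 1.5-fold and its paralog FNIP1 was not. FNIP1, at chr5:131797018-131797267 on the minus strand, held 2 E-boxes, from -175 to -170 and from -94 to -89. The first of 2 windows of FNIP2, at chr4:158768776-158769025 on the plus strand, held no E-box and 1 ACGTG from -146 to -142, and the second window held no match. The window of FLCN held no match of the 4 motifs.
FNIP1: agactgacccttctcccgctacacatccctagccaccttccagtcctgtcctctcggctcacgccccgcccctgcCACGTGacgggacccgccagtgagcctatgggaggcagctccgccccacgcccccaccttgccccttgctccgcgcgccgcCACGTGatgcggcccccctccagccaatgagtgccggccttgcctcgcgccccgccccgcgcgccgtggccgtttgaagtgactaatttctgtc
FNIP2: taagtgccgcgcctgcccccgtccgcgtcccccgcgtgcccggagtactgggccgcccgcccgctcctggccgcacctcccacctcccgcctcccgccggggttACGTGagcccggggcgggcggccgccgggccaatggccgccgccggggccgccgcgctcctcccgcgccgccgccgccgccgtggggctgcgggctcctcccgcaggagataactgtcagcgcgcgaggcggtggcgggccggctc

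TSC1 and TSC2 form the complex that turns Rheb off, TSC1 as the scaffold and TSC2 as the catalytic subunit. TSC2 had 6.80 with DMSO and 7.15 with LXR623, a log2 difference of 0.35 or 1.28-fold, the highest among the members that did not reach 1.5-fold. TSC1 had 7.52 and 7.66, a difference of 0.14, and DEPTOR, the inhibitor within the mTOR complexes, 4.62 and 4.86, a difference of 0.24. The 6 measured members that did not reach 1.5-fold thus spanned -0.05 to 0.35. TSC2 was also the member whose promoter held the ATF4-type element, TGATGCAA from -110 to -103, which overlaps an E-box from -114 to -109. It was found in the first of its 2 windows, at chr16:2047735-2047984 on the plus strand, while the second window and that of TSC1 held no match. Of the 13 windows of 9 members, 1 held TGATGNAA, 2 held CACGTG, 4 held ACGTG and 0 held GTAAACA. Over all 35114 windows the shares were 3.14%, 6.35%, 18.5% and 2.98% in the same order. The 2 windows of TSC2 overlap each other. All matches are of letters and not measured binding.
TSC2: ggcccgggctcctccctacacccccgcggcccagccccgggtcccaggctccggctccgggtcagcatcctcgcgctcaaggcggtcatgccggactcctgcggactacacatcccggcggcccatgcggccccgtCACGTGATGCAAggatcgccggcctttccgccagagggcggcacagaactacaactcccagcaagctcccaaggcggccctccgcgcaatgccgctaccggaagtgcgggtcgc

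**Figure D2:**
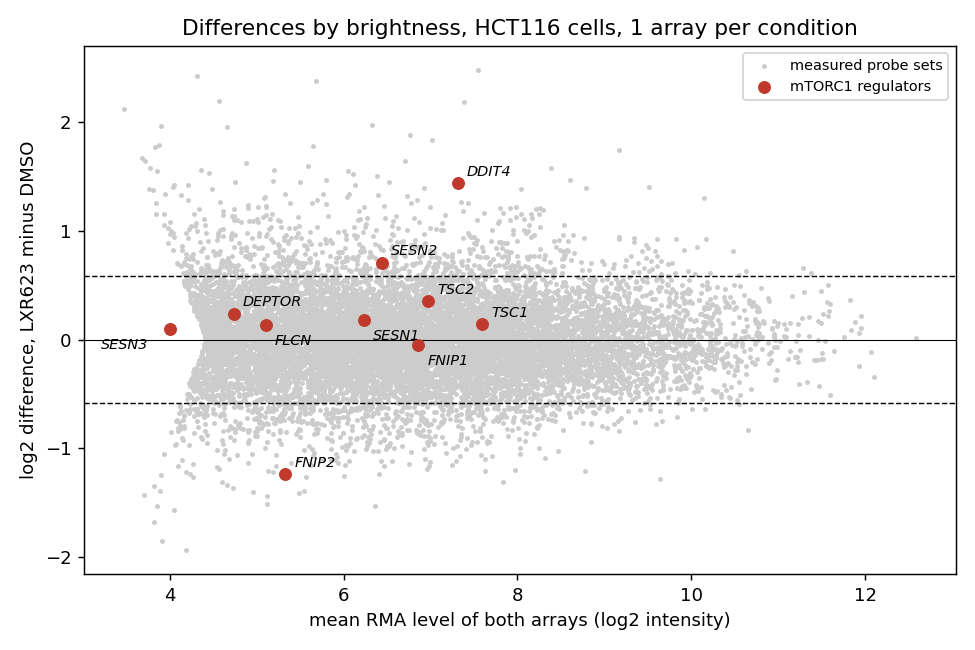
Log2 difference between the LXR623 and the DMSO array against the mean RMA level (log2 intensity) of both, for the 12279 measured probe sets in grey and the 10 genes in red, with dashed lines at 1.5-fold. DDIT4 at 1.44 and FNIP2 at -1.24 lie at the edges of the cloud, SESN2 at 0.71 lies just past the upper line, and the other 7 genes lie between the lines.

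The genes around these regulators were grouped into 9 lists of the pathway, of which 72 genes had a named probe set and 66 were measured. None reached 1.5-fold upward (0 of 66), and 2, or 3.03%, reached it downward, beside the background of 6.3% and 5.78%, and their median difference was 0.03. The genes past the threshold were RHEB and RRAGD. RHEB encodes the GTPase that activates mTORC1 and is the target of the TSC complex. It had 5.43 with DMSO and 4.54 with LXR623, a log2 difference of -0.89, or 1.85-fold lower, the second level being close to the median of the table. The other 3 measured genes of this list, with the TSC subunit TBC1D7 at 0.19, AKT2 at -0.05 and AKT1 at -0.16, did not reach 1.5-fold. RRAGD encodes RagD, which folliculin acts on. It had 7.19 and 6.60, a difference of -0.59 or 1.51-fold lower, whereas its paralog RRAGC, with 7.47 and 7.51, had 0.04. RRAGD no longer reached 1.5-fold when the trend with brightness was removed, with -0.55, or after quantile normalization, with -0.57. The other 8 measured genes of the Rag and Ragulator list included the lysosomal arginine sensor SLC38A9 at 0.31, and the median of the list was 0.04.

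In the relays on either side of these GTPases, no measured gene reached 1.5-fold. Over all measured probe sets 6.3% reached it upward and 5.78% downward. At such shares, lists this short can hold no such gene, so the counts say little about the relays. AMPK, which senses low energy, and its activating kinase LKB1 had 0 of 9 measured genes past the threshold in either direction. The median of this list was 0.12, from the AMPK subunit gene PRKAG2 at 0.43 to STK11, which encodes LKB1, at -0.20. GATOR1, KICSTOR and the amino acid sensors had 0 of 8 and a median of -0.07, between ITFG2 of KICSTOR at 0.22 and NPRL3 of GATOR1 at -0.26. GATOR2, to which the sestrins bind, had 0 of 5 and a median of 0.03, between SEC13 at 0.45 and SEH1L at -0.33. Both of these proteins are also part of the nuclear pore.

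Of the mTOR kinase complexes, 0 of 10 measured genes reached 1.5-fold, 9 were below 0 and the median was -0.15. Over all measured probe sets the median was -0.02, 47.0% were above 0 and 1.35% had equal values on both arrays. At 1.5-fold that background was 6.3% upward and 5.78% downward. With 1 array per condition the lower values of this list were not tested. MTOR itself had 8.23 and 8.06, a difference of -0.17, and RPTOR, the defining subunit of mTORC1, 7.89 and 7.66, a difference of -0.24. TTI1, which helps to assemble the kinase, had the lowest value, -0.52, and RICTOR, the defining subunit of mTORC2, the highest, 0.24. In the list of mTORC1 substrates 0 of 10 reached 1.5-fold, with a median of 0.19. The list also counts RPS6, at 0.07, which is a target of the S6 kinase and not of mTORC1 itself. LPIN1, a regulator of lipid synthesis, had 6.10 and 6.67, a difference of 0.58 that lay just under the threshold and passed it at 0.61 without the brightness trend and at 0.605 after quantile normalization. TFE3 had 0.51, the translation repressor gene EIF4EBP1 0.46, and RPS6KB1, which encodes the S6 kinase, the lowest value, -0.24. The arrays measured transcripts and gave no reading of mTORC1 activity.

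**Figure D3:**
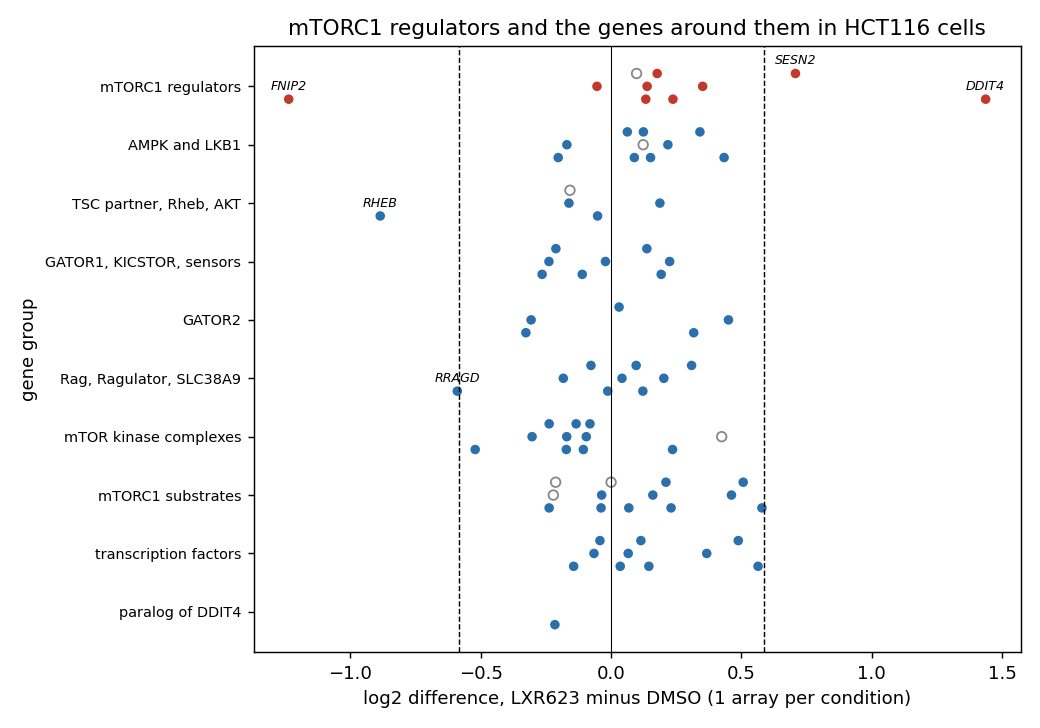
Log2 difference between the LXR623 and the DMSO array (horizontal axis) for the 10 genes in red and for the genes of 9 pathway lists in blue, 1 point per gene, with open circles for probe sets under the median of the table and dashed lines at 1.5-fold. DDIT4, SESN2 and FNIP2 lie past the lines, as do RHEB at -0.89 and RRAGD at -0.59. Heights within a row only separate the points.

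Transcription factors known to act on DDIT4 or the sestrins had 0 of 10 measured genes past 1.5-fold and a median of 0.09. The background of measured probe sets was 6.3% upward and 5.78% downward. ATF4, the main effector of the integrated stress response, had the highest difference, with 8.46 under DMSO and 9.02 under LXR623, a difference of 0.56 that passed 1.5-fold, at 0.60, only without the brightness trend. FOXO3, which acts on SESN3, had 0.49 and CEBPB, a stress-induced partner of ATF4, 0.37. HIF1A, which acts on DDIT4 in hypoxia, had 0.04, NR3C1, the glucocorticoid receptor, 0.11, and ARNT, the partner of HIF1A, the lowest value, -0.14. These are transcript levels, and several of the factors are controlled mainly at the protein level.

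The label of the cells was checked against marker genes. Of 8 epithelial colon carcinoma markers 6 were measured, with EPCAM at 10.1 under DMSO and 10.2 under LXR623, and VIL1 and LGALS4 were under the median of the table on both. Of 6 glial or mesenchymal markers 3 were measured, and GFAP, S100B and COL1A2 were under the median. The measured ones were VIM with 5.27 under DMSO and 5.29 under LXR623, COL1A1 with 5.58 and 5.70, and FN1 with 5.28 and 5.18. Of 4 named leukocyte and endothelial markers 0 were measured. The keratin gene KRT8 had 5.63 and 7.14, so this epithelial marker differed between the arrays by 1.50, and its part in the results above was not tested. Of the measured probe sets, 166 had exactly equal deposited values on both arrays, with no tolerance, and none of the 10 genes was among them.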

How the data were processed

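Total RNA of HCT116 cells was labelled with the WT Plus kit and hybridized to Affymetrix arrays, 1 for each condition. The authors deposited log2 intensities from RMA, a method that corrects background, equalizes the arrays and summarizes probes. RMA was run in affy 1.36.1 under R 2.15.1, according to the processing notes of the submitters. The genome build is not given in the sources used here.

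Of 23786 probe sets, 22458 carry 1 symbol in the platform's annotation table and 1328 are unnamed here. For each probe set the DMSO value was subtracted from the LXR623 value. The number of arrays limits the precision, and no test was run. All members were named. From each list the genes past 1.5-fold and those with the highest and the lowest difference were named. A few others were chosen after their values were seen, as were the marker values of EPCAM, KRT8, VIM, COL1A1 and FN1. The members and lists were chosen with earlier results of these data known. Promoter windows are from RefSeq and were matched by symbol. Member windows on 1 chromosome were left out, a rule not applied to the background windows. Windows are given for 9 of the 10 members, all but DEPTOR. A comparison of the proteins was planned and not made. As alternatives, other filters, quantile normalization, centring of each array, a lowess fit of the difference on brightness (fraction 0.3) that was then subtracted, and a threshold of 2-fold were tried. Python 3.11.15, numpy 2.4.6, pandas 2.3.3, statsmodels 0.14.6 and matplotlib 3.10.9 were used, and the steps were tested on simulated data.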

Additional observations from a re-analysis of the deposited data

How the results depend on the processing

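No paired analysis was possible because the design holds a single array of each kind, and for the same reason no replicate could be left out. The choice among several probe sets of a gene was not run, as each member has 1. DDIT4 ranged from 1.40 to 1.47 over the scalings tried, FNIP2 from -1.27 to -1.23 and SESN2 from 0.67 to 0.74, so these 3 stayed past 1.5-fold, and no other measured member reached it under these scalings. SESN3 did not reach it in the scalings that gave it a value, as the brightness trend was fitted on measured probe sets alone. At 2-fold 1 member was higher, DDIT4, and 0 genes of the RHEB list and 0 of the Rag list were lower. The Rag list also had 0 lower genes without the brightness trend and after quantile normalization. Under both of these, 1 mTORC1 substrate was higher, LPIN1, and without the trend 1 transcription factor was, ATF4. With no filter on dim probe sets the median of the mTORC1 substrates was 0.068, as 3 dim genes enter the list. Of the 12279 measured probe sets, 773 were higher and 710 lower at 1.5-fold, against 169 and 91 at 2-fold. With each array centred on its median there were 677 higher and 880 lower, so the larger count changed sides. With no filter, 1242 of 23786 were higher and 1133 lower. Signals near the median of the table limit what can be read of SESN3, DEPTOR and FNIP2.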
